A study of Mus musculus with 24 samples.

Results

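The genes described here are 35 genes of the unfolded protein response and of protein folding in the endoplasmic reticulum (ER), measured in livers of mice with NASH, in which fat, inflammation and cell injury occur together. They were chosen by symbol, from a list of ER chaperones, disulfide isomerases, ER-associated degradation (ERAD) genes, the 3 stress sensors and the factors and targets downstream of them. All 35 were among the 14293 gene rows of the deposited table, and all 35 passed the filter on low values, as did 11562 genes in all. The liver samples form 3 groups of 8 that differ by the label of treatment: vehicle, vutiglabridin and semaglutide. Vutiglabridin is a synthetic relative of the licorice flavonoid glabridin, presented by the series title as an agonist of paraoxonase-2, and semaglutide activates the GLP-1 receptor. No strain, sex, age, diet, dose, duration or animal identity is stated for any group, and no healthy liver is among the samples. Nothing in them says that the 8 samples of a group are 8 animals, so every p-value rests on sample-to-sample spread that may be technical.

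Hepatocytes make most plasma proteins, and these enter the ER through the Sec61 translocon, where chaperones and disulfide isomerases fold them and ERAD sends misfolded chains back to the cytosol for breakdown. When unfolded proteins build up, the membrane sensors ATF6, IRE1 (gene Ern1) and PERK (gene Eif2ak3) start the unfolded protein response. ATF6 and the spliced form of XBP1, made by IRE1, raise chaperone and ERAD genes, while PERK phosphorylates eIF2α, which slows translation and favours ATF4 and its targets CHOP (gene Ddit3), Trib3 and Chac1. The values are FPKM, fragments scaled by gene length and library size, at the level of genes, so they do not show Xbp1 splicing, eIF2α phosphorylation or ATF6 cleavage.

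All libraries carried liver RNA. The 9 hepatocyte marker genes with a row, Alb among them, summed to between 30830 and 48830 FPKM per library. The low FPKM values lay on the steps that 1 fragment makes, which implied 11.98 to 19.83 M (mega, SI prefix) fragments in vehicle libraries, 5.98 to 15.25 M in vutiglabridin libraries and 9.33 to 12.41 M in semaglutide libraries. Vutiglabridin replicate 7 was the shallowest. The semaglutide columns were also written differently from the others (a trailing space in all 114344 cells, and in none of the other groups), so a difference in handling and the drug cannot be told apart. Because FPKM was not scaled to a fixed total, rescaling to TPM (equal totals per library) moved the median change of all genes tested under vutiglabridin from 0.01 to -0.11 on the log2 scale.

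The members' vehicle levels, per gene length, spanned a wide range. The disulfide isomerase P4hb was highest at 642 ± 37.6 FPKM (SD, n = 8), followed by the lectin chaperone Calr at 308 ± 35.2, the central ER chaperone Hspa5 (BiP) at 241 ± 29.7, the ERAD scaffold Herpud1 at 213 ± 32.4 and the ER HSP90 Hsp90b1 at 212 ± 20.6. Herpud1 differed from each of its neighbours in that order, Hspa5 and Hsp90b1, by less than their spread. At the other end stood the ERAD channel gene Derl3 at 1.78 ± 1.06 FPKM, the stress-induced eIF2α phosphatase subunit Ppp1r15a at 3.78 ± 0.51, Chac1 at 4.52 ± 1.16, Trib3 at 5.64 ± 1.11 and Eif2ak3 at 5.88 ± 0.96. Trib3 and Eif2ak3 also differed by less than their spread, and Ppp1r15a and Chac1 by less than the SD of Chac1. Roles were not sorted by level, with the factor Xbp1 at 70.9 ± 10.6 and the folding gene Hyou1 at 26.9 ± 5.19.

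Promoter sequence was read for 29 of the 35 genes from RefSeq (build GRCm38.p6, 250 bases before to 50 after the start). The ER stress response element ERSE, written as CCAAT, then 9 bases of any kind, then CCACG, and searched on both strands, is the site that ATF6 binds together with NF-Y. It occurred in the promoters of 9 of these 29 genes (31%) and in 37 of all 27025 genes with a promoter sequence (0.137%). The 37 include these 9. Because the members were chosen as genes of this response, the shares of this and the other elements are descriptions only. Each match is printed 5′ to 3′ with the element in capitals and 5 flanking bases on either side, to show what these matches share and where their inner bases differ.
Hspa5, chr2:34772020-34772048, plus strand, 65 to 47 bases before the start: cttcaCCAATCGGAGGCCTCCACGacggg
Hsp90b1, chr10:86705633-86705661, minus strand, 212 to 194 bases before the start: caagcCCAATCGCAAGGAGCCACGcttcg
Hsp90b1, chr10:86705528-86705556, plus strand, 107 to 89 bases before the start: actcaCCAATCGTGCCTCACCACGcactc
Dnajc3, chr14:118937822-118937850, plus strand, 105 to 87 bases before the start: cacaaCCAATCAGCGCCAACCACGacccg
Calr, chr8:84847070-84847098, plus strand, 162 to 144 bases before the start: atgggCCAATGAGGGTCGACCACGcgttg
Canx, chr11:50325795-50325823, minus strand, 145 to 127 bases before the start: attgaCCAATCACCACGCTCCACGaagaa
Creld2, chr15:88819515-88819543, minus strand, 126 to 108 bases before the start: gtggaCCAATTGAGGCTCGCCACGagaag
Pdia6, chr12:17266486-17266514, plus strand, 98 to 80 bases before the start: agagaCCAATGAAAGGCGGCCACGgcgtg
Syvn1, chr19:6046527-6046555, plus strand, 44 to 26 bases before the start: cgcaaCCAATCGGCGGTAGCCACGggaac
Derl3, chr10:75893237-75893265, minus strand, 156 to 138 bases before the start: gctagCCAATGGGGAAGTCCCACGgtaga

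The related element ERSE-II, ATTGG and CCACG with 1 base of any kind (N) between them, was present in 2 of the 29 promoters, those of Herpud1 and of the BiP co-chaperone Dnajb11, against 0.0444% of all genes. The Dnajb11 match lay after the start. The XBP1 core TGACGTGG was in none of the 29 (0.714% of all genes), and the ATF4 element TGATGNAAN was in 3, Herpud1, Trib3 and Chac1 (10.3%, against 4.5% of all genes). The Trib3 match also lay after the start. The Herpud1 and Chac1 sequences show an ERSE-II and an ATF4 element in the same way.
Herpud1, chr8:94386372-94386392, plus strand, 52 to 42 bases before the start: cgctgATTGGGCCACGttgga
Chac1, chr2:119351043-119351061, minus strand, 194 to 186 bases before the start: aggagTGATGCAACggcag

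Sdf2l1, a partner of BiP and of Dnajb11, is the member that differed most between groups, and its upstream sequence held none of the 4 motifs in these letters. The 150 bases before its start are printed on the minus strand, chr16:17132384-17132533.
Sdf2l1: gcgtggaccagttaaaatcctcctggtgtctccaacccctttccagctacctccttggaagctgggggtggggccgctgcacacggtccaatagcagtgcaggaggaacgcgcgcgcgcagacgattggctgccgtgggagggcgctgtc

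Under semaglutide, 13 of the 35 genes changed against vehicle, 4 higher and 9 lower. Calls are from 1 limma fit to log2(FPKM + 1) over all 24 samples, 2-sided, at an adjusted p under 0.05 after Benjamini-Hochberg adjustment over all 11562 genes. The share called was 37.1% of the members, against 27.0% of all genes tested. That excess was not kept without vehicle replicate 3, without semaglutide replicate 2 or 8, or in the exact rank test. With trends in GC content and gene length removed it shrank, to 31.4% of the members against 28.4% of all genes. It was nearly gone without any 1 of vehicle replicates 1 and 4 or semaglutide replicate 6. For lower values the shares were 25.7% and 12.7%, and for higher values 11.4% and 14.3%. The median difference of the 35 genes was -0.17 on the log2 scale, against -0.01 over all genes tested. The chaperones Hspa5, Sdf2l1 and Dnajb11 fell, as did the disulfide isomerases Pdia3, Pdia6 and P4hb, the ERAD genes Syvn1 and Derl3 and the translocon subunit Sec61b. The sensors Atf6 and Ern1, the lectin chaperone Canx and the constitutive eIF2α phosphatase subunit Ppp1r15b rose. Rescaled to TPM, 3 were higher and 14 lower (8.57% and 40.0%), against 10.6% and 18.8% of all genes tested.

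**Figure D1:**
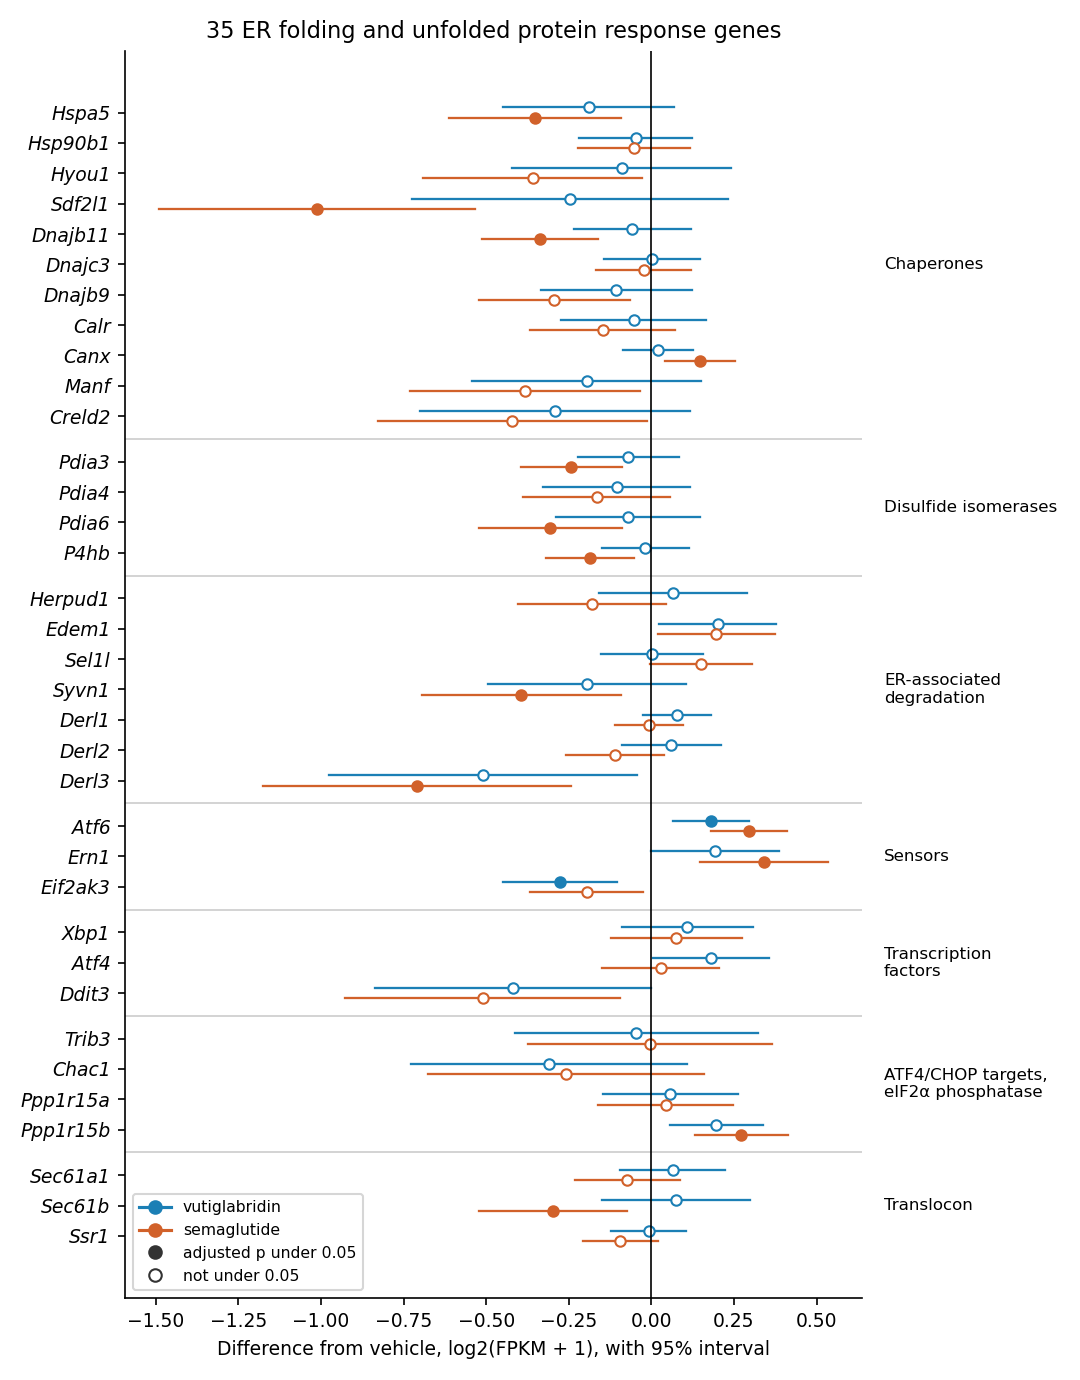
Difference from vehicle on the log2(FPKM + 1) scale for each of the 35 genes (points, with 95% intervals from the limma fit), vutiglabridin in blue and semaglutide in orange; filled points have an adjusted p under 0.05, and genes are grouped by role. Sdf2l1 lies farthest from 0, at -1.01 under semaglutide, and Atf6 is the gene with a filled point for both drugs.

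Sdf2l1 (chromosome 16, 17130138 to 17132383, GRCm38) had the largest difference of the 35. Its vehicle values ran from 17.1 to 37.9 FPKM with a median of 28.1, its vutiglabridin values from 10.7 to 37.5 with a median of 24.02, and its semaglutide values from 7.42 to 27.5 with a median of 13.3. All 8 semaglutide samples were below the vehicle mean and 5 were below the lowest vehicle sample, with semaglutide replicate 5 the highest of its group. The group mean fell by 49.1%, a log2 difference of -1.01 (95% interval -1.49 to -0.53, adjusted p = 0.00215).

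Hspa5 (chromosome 2, 34771970 to 34777547) ran from 188 to 268 FPKM in vehicle, with a median of 254, and from 137 to 274 in semaglutide, with a median of 181. In 7 of 8 semaglutide samples it was below the vehicle mean, and in replicate 4 it was above every vehicle sample, so the groups overlapped. The log2 difference was -0.35 ± 0.13 (SE, adjusted p = 0.0389). This call was lost without any 1 of vehicle replicates 1, 2, 3, 6 and 8 or semaglutide replicates 2, 3, 6, 7 and 8 (adjusted p 0.0507 to 0.0921), and in the exact rank test (0.107, within 0.0115 to 0.107 over 15 settings).

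Dnajb11, which hands substrates to BiP, had 27.6 to 38.2 FPKM in vehicle (median 34.9) and 23.2 to 33.2 in semaglutide (median 25.3). All 8 semaglutide samples were below the vehicle mean and 5 were below every vehicle sample. It fell by 0.34 ± 0.086 on the log2 scale (SE, adjusted p = 0.00489). Canx, the membrane-bound lectin chaperone, went the other way, from 88.9 to 108 FPKM in vehicle (median 99.6) to 101 to 128 in semaglutide (median 110), with 5 semaglutide samples above every vehicle sample. Its rise of 0.15 ± 0.051 (SE, adjusted p = 0.0352) was not called under TPM scaling (adjusted p = 0.211), with trends in GC content and gene length removed (0.228) or in a fit of only the 2 groups (0.0592), within a range of 0.0179 to 0.228. It was also lost without any 1 of vehicle replicates 2, 3, 4 and 7 or semaglutide replicates 1, 4 and 6, at up to 0.0834.

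Of the 11 chaperones, 7 did not pass. Hyou1, a nucleotide exchange factor for BiP, differed by -0.36 (95% interval -0.69 to -0.03, adjusted p = 0.0995), Manf, a BiP-binding secreted protein, by -0.38 (-0.73 to -0.04, 0.0935) and Creld2, an ER folding factor, by -0.42 (-0.83 to -0.01, 0.117). Dnajb9, a co-chaperone that binds BiP at IRE1, differed by -0.29 (-0.52 to -0.06, 0.0510). Single libraries decided the side of the threshold for several of these. Without semaglutide replicate 4 Hyou1 was called (0.0405), without semaglutide replicate 5 Manf (0.0430) and Creld2 (0.0377), and without vutiglabridin replicate 4 Hyou1 (0.0443) and Manf (0.0418). Dnajb9 was called without any 1 of vehicle replicates 4, 5 and 7, vutiglabridin replicates 4 and 6 or semaglutide replicate 4 (0.00954 to 0.0485). It was also called under 6 of 15 alternative settings, among them TPM scaling (-0.35, 0.0181) and removal of GC and length trends (-0.36, 0.0160), within 0.0127 to 0.107. With sample weights Hyou1 (0.0366), Manf (0.0290) and Creld2 (0.0268) were called, and under TPM scaling Hyou1 (0.0408) and Manf (0.0421). The intervals of Hsp90b1 (-0.22 to 0.12), Calr (-0.37 to 0.07) and of the co-chaperone Dnajc3 (-0.17 to 0.12) included 0. The ERSE-bearing genes thus lay on both sides of the threshold. Of the 11 genes with an ERSE or ERSE-II match, 5 were lower and 1 higher, and of the 18 with promoter sequence and no match 4 were lower and 1 higher. Over all genes tested, 12.7% were lower and 14.3% higher. Outside the members, 7 tested genes had an ERSE match, 2 of them lower and 1 higher. A further 6 had an ERSE-II match, 0 lower and 2 higher.

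Of the 4 disulfide isomerases, 3 fell. Pdia3, which serves glycoproteins held by Calr and Canx, ran from 158 to 183 FPKM in vehicle (median 173) and from 116 to 174 in semaglutide (median 147). The vehicle samples lay close together, and 5 semaglutide samples were below the lowest of them. It fell by 0.24 ± 0.074 (SE, adjusted p = 0.0170). Pdia6, an isomerase bound to BiP, differed by -0.31 ± 0.11 (SE, adjusted p = 0.0332, below the vehicle mean in 7 of 8 samples), and P4hb, the most abundant isomerase, by -0.19 ± 0.064 (SE, adjusted p = 0.0329, 8 of 8 samples). Pdia4 differed by -0.17 (95% interval -0.39 to 0.06, adjusted p = 0.271).

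With GC and length trends removed, the calls of Pdia6 (adjusted p = 0.0752, within 0.00984 to 0.0783) and P4hb (0.284, within 0.00258 to 0.284) were lost, and the difference of P4hb was -0.09. The exact rank test also lost Pdia6 (0.0548). Pdia6 was also not called without any 1 of vehicle replicates 1, 3 and 4 or semaglutide replicates 2, 3, 7 and 8 (adjusted p up to 0.0777), and P4hb without any 1 of vehicle replicates 1, 4 and 8 or semaglutide replicates 2, 3 and 8 (up to 0.0776). Changes under semaglutide went with gene properties over the whole table, the Spearman rho across the 11562 genes being -0.30 for GC content and 0.27 for exon length. Across the 35 members rho was -0.27 and 0.51. Genes are not independent replicates, and the part of these properties in each change was not tested.

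Among the 7 ERAD genes, 2 fell and 5 did not pass. Syvn1, the ubiquitin ligase of the main ERAD complex, ran from 14.7 to 26.6 FPKM in vehicle (median 19.1) and from 11.2 to 17.3 in semaglutide (median 14.3), below the vehicle mean in 8 of 8 samples. Its difference of -0.39 ± 0.15 (SE, adjusted p = 0.0467) sat just inside the threshold. It was lost without any 1 of vehicle replicates 2, 3, 4, 6 and 8, vutiglabridin replicates 2, 3 and 5 or semaglutide replicates 1, 2, 3, 6, 7 and 8 (adjusted p 0.0504 to 0.106). It was also lost with no filter on low values (0.0559), with GC and length trends removed (0.0768) and in the exact rank test (0.0548), within 0.0107 to 0.0842. Sel1l, the adaptor of Syvn1, differed by 0.15 (95% interval -0.0032 to 0.30, adjusted p = 0.139) and Edem1, a lectin that extracts misfolded glycoproteins, by 0.20 (0.02 to 0.37, 0.0916). Sel1l was called without semaglutide replicate 7 (0.0460) and Edem1 without semaglutide replicate 3 (0.0446). Herpud1 differed by -0.18 (-0.40 to 0.04, 0.234), Derl1 by -0.01 (-0.11 to 0.10, 0.936) and Derl2 by -0.11 (-0.26 to 0.04, 0.278), the last called lower once GC and length trends were removed (-0.25, adjusted p = 0.0118).

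Derl3 was near the lower end of detection. It ran from 0.33 to 3.64 FPKM in vehicle (median 1.79), from 0.13 to 2.13 in vutiglabridin (median 0.88) and from 0.05 to 1.58 in semaglutide (median 0.40), the last standing for 1 to 39 implied fragments per library. All 8 semaglutide samples were below the vehicle mean, though only 1 was below the lowest vehicle sample. The log2 difference was -0.71 ± 0.23 (SE, adjusted p = 0.0216), and on the log2(FPKM + 1) scale it understates a change at such levels. Without vehicle replicate 3 the adjusted p was 0.0536 and without semaglutide replicate 8 it was 0.0505. The exact rank test gave 0.0715, within 0.0107 to 0.0715. Derl3 is also high in plasma cells, and vehicle replicate 3, its highest sample, had the highest sum of B and plasma cell markers, 65.1 FPKM for the 8 of 9 markers with a row, against 3.72 to 9.94 in the other vehicle samples. Semaglutide replicate 5, with 1.58 FPKM of Derl3, had the second highest sum, 16.6. Other libraries did not follow this order. Vehicle replicate 4 had the second highest Derl3, 2.46 FPKM, at a sum of 4.25, and vehicle replicate 5 had 0.8 FPKM at a sum of 8.42. The part of these cells in the Derl3 difference was not tested.

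Of the 3 sensors, Atf6 and Ern1 rose. Atf6 (chromosome 1, 170704674 to 170867771) ran from 9.59 to 11.3 FPKM in vehicle (median 10.5), from 10.3 to 14.2 in vutiglabridin (median 12.04) and from 11.9 to 14.9 in semaglutide (median 13.1). Every semaglutide sample was above every vehicle sample, which held for 1 of the 35 genes and for 4.09% of all genes tested. No member lay wholly below vehicle, against 1.74% of all genes, and 5.83% of all genes were free of overlap in either direction. The group mean rose by 25.0%, a log2 difference of 0.29 ± 0.056 (SE, adjusted p = 0.000369). Ern1, which encodes IRE1, ran from 5.69 to 8.72 FPKM in vehicle (median 7.35) and from 6.84 to 12.2 in semaglutide (median 9.41). The groups overlapped, with 5 semaglutide samples above every vehicle sample. It rose by 0.34 ± 0.095 (SE, adjusted p = 0.00904), and an exact rank test, which ignores sizes, gave an adjusted p of 0.0548 within a range of 0.00491 to 0.0548. Eif2ak3, which encodes PERK, was below the vehicle mean in 8 of 8 semaglutide samples, at -0.20 (95% interval -0.37 to -0.02), and did not pass (adjusted p = 0.0832). Without vehicle replicate 6 it did (0.0448), as under TPM scaling (0.0470, within 0.0470 to 0.166).

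None of the 3 transcription factors passed under semaglutide. Xbp1 differed by 0.08 (95% interval -0.12 to 0.27, adjusted p = 0.610) and Atf4 by 0.03 (-0.15 to 0.20, 0.848). Ddit3, the proapoptotic factor CHOP, ran from 3.18 to 10.1 FPKM in vehicle (median 6.57), from 1.95 to 6.41 in vutiglabridin (median 5.17) and from 2.71 to 7.97 in semaglutide (median 3.89). It was below the vehicle mean in 7 of 8 semaglutide samples, with replicate 7 above it, and its difference of -0.51 (-0.93 to -0.09) missed the threshold (adjusted p = 0.0621). It was called under TPM scaling (0.0430) and with sample weights (0.0102), within a range of 0.0102 to 0.158 over the alternatives, and also without any 1 of vehicle replicates 5 and 8, vutiglabridin replicate 7 or semaglutide replicate 7 (0.0186 to 0.0418).

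Of the 4 genes grouped as targets of ATF4 and CHOP or as subunits of the eIF2α phosphatase, 1 rose. Ppp1r15b, the constitutive partner of the eIF2α phosphatase, ran from 18.8 to 23.99 FPKM in vehicle (median 20.02), from 20.2 to 27.1 in vutiglabridin (median 23.8) and from 21.8 to 28.6 in semaglutide (median 24.1). All 8 semaglutide samples were above the vehicle mean, and the rise was 0.27 ± 0.068 on the log2 scale (SE, adjusted p = 0.00424). Its stress-induced counterpart Ppp1r15a differed by 0.04 (95% interval -0.16 to 0.25, adjusted p = 0.790). Trib3, a pseudokinase, differed by 0.00 (-0.37 to 0.36, 0.989) and Chac1, a glutathione-degrading enzyme, by -0.26 (-0.68 to 0.16, 0.373), so that differences of these sizes could not be told from 0 for either.

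In the translocon, Sec61b ran from 29.2 to 38.9 FPKM in vehicle (median 35.3), from 29.9 to 52.0 in vutiglabridin (median 35.1) and from 21.1 to 36.6 in semaglutide (median 29.2). It was below the vehicle mean in 7 of 8 semaglutide samples, and the difference was -0.30 ± 0.11 (SE, adjusted p = 0.0420). It was not called with GC and length trends removed (-0.17, adjusted p = 0.152, within 0.00978 to 0.152) or in the exact rank test (0.0690), nor without any 1 of vehicle replicates 1, 4, 6, 7 and 8 or semaglutide replicates 2, 3, 6 and 8 (0.0533 to 0.0954). The pore subunit Sec61a1 differed by -0.07 (95% interval -0.23 to 0.09, adjusted p = 0.523) and the translocon-associated Ssr1 by -0.09 (-0.21 to 0.02, 0.215). Ssr1 was called lower once GC and length trends were removed (-0.24, adjusted p = 0.00361).

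Of the 13 changes, those of Sdf2l1, Dnajb11, Pdia3, Atf6 and Ppp1r15b were called under all 15 alternative settings and without any 1 of the 24 libraries. The count of called members ran from 7 to 16 when 1 library was left out, and the exact rank test called 7. Without semaglutide replicate 8, 4 were higher and 3 lower, without semaglutide replicate 2, 4 and 4, without semaglutide replicate 3, 5 and 4, and without vehicle replicate 3, 3 and 5. The share of members called then lay near or below that of all genes. It was 20% against 24.8% in the rank test and 20% against 23.3% without semaglutide replicate 8. It was 22.9% without semaglutide replicate 2 (25.0% of all genes) or without vehicle replicate 3 (23.4%), and 25.7% without semaglutide replicate 3 (23.3%). Without vehicle replicate 1, vehicle replicate 4 or semaglutide replicate 6 it was also 25.7%, 9 members each time. The genes called were then 2918 of 11529, 2927 of 11540 and 2952 of 11536.

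**Figure D2:**
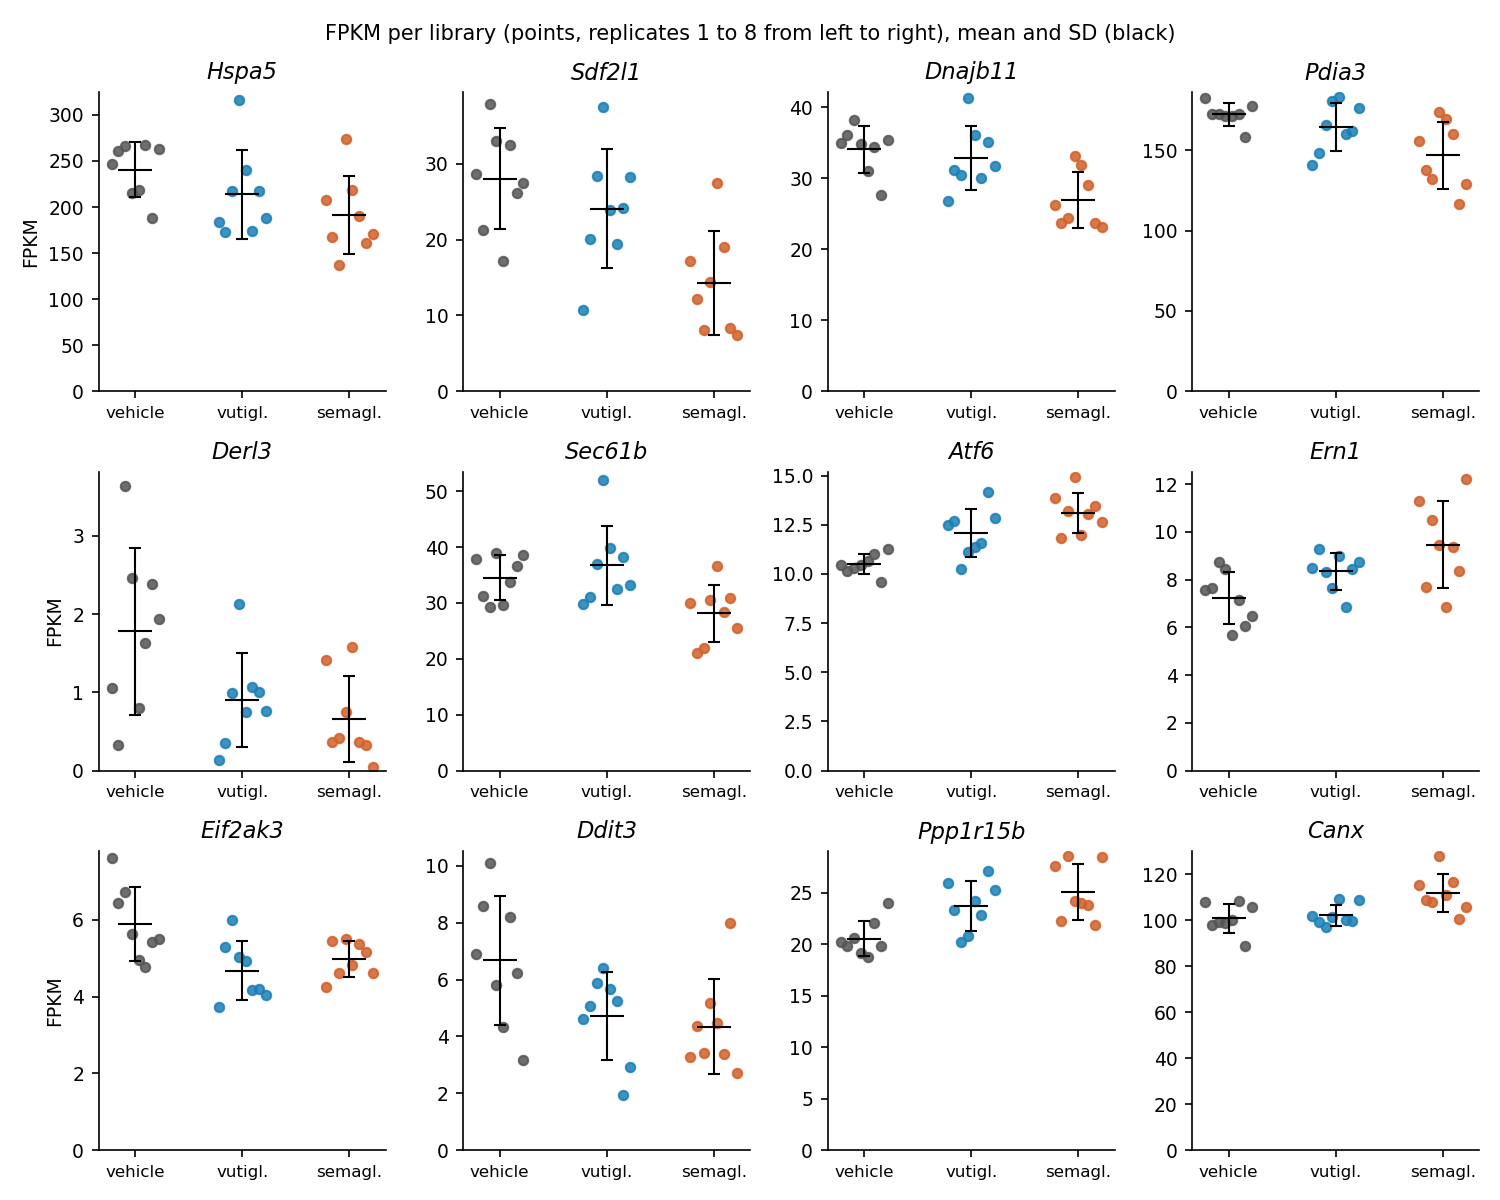
FPKM of 12 of the genes in each of the 24 libraries (points; replicates 1 to 8 from left to right within a group), with the group mean and SD in black and axes starting at 0. The 8 semaglutide values of Atf6 lie above all 8 vehicle values, while those of Sdf2l1, Hspa5 and Derl3 overlap with vehicle.

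Under vutiglabridin, 2 of the 35 genes changed against vehicle, Atf6 higher and Eif2ak3 lower. That is 5.71% of the members, against 15.3% of all genes tested, of which 6.53% were higher and 8.78% lower. No member's groups were free of overlap, against 1.74% of all genes, 0.770% higher and 0.969% lower. The median difference of the members was -0.05, against 0.01 over all genes. These values use the same vehicle samples as the semaglutide comparison. Atf6 was above the vehicle mean in 7 of 8 vutiglabridin samples and above every vehicle sample in 6, a difference of 0.18 ± 0.056 (SE, adjusted p = 0.0296). Eif2ak3 ran from 4.77 to 7.60 FPKM in vehicle (median 5.57), from 3.74 to 6.00 in vutiglabridin (median 4.57) and from 4.24 to 5.50 in semaglutide (median 5.00). It was below the vehicle mean in 7 of 8 vutiglabridin samples and differed by -0.28 ± 0.084 (SE, adjusted p = 0.0257).

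Both calls were close to the threshold. That of Atf6 was lost under TPM scaling (0.04, adjusted p = 0.661), quantile normalization (0.0707) and the exact rank test (0.0577), within 0.0129 to 0.661, and without any 1 of vehicle replicates 2 and 7 or vutiglabridin replicates 1, 2, 7 and 8 (0.0520 to 0.0670). That of Eif2ak3 was lost in a fit of only the 2 groups (0.0517) and in the rank test (0.111), within 0.00241 to 0.111, and without any 1 of vehicle replicates 1, 2 and 3 or vutiglabridin replicates 1, 7 and 8 (0.0505 to 0.0620). Without vutiglabridin replicate 1, 7 or 8 no member was called. Under TPM scaling 0 members were higher and 6 lower (17.1%), while of all genes tested 2.02% were higher and 23.6% lower. Among the 6 were Hspa5 (-0.35, adjusted p = 0.0326), Dnajb11 (-0.21, 0.0469), Pdia3 (-0.23, 0.0222) and P4hb (-0.18, 0.0244). Under quantile normalization 0 were higher and 4 lower (11.4%), against 4.65% and 7.33% of all genes.

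The other sensors and factors did not pass under vutiglabridin. Ern1 differed by 0.19 (95% interval -0.0025 to 0.39, adjusted p = 0.181), Xbp1 by 0.11 (-0.09 to 0.31, 0.5), Atf4 by 0.18 (0.0042 to 0.36, 0.163) and Ddit3 by -0.42 (-0.84 to -0.0026, 0.172). The sign for Xbp1 turned under TPM scaling and quantile normalization. Ddit3 was below the vehicle mean in all 8 vutiglabridin samples, lowest in replicates 7 and 8 at 1.95 and 2.91 FPKM. Edem1 was above the vehicle mean in all 8 (0.20, 95% interval 0.02 to 0.38, adjusted p = 0.117), and Ppp1r15b in 7 of 8 (0.20, 0.06 to 0.34, 0.0516). Ppp1r15b was called without any 1 of vehicle replicates 6 and 8, vutiglabridin replicates 3 and 4 or semaglutide replicates 3, 7 and 8 (0.0218 to 0.0489). It was also called under 5 of 15 alternative settings, among them sample weights (0.0392) and removal of GC and length trends (0.034), within 0.0322 to 0.64. Edem1 was called in a fit of only the 2 groups (0.048, within 0.048 to 0.694). The folding genes did not pass, with Hspa5 at -0.19 (-0.45 to 0.07, 0.345), Sdf2l1 at -0.25 (-0.73 to 0.23, 0.532) and Dnajb11 at -0.06 (-0.23 to 0.12, 0.712). Derl3 differed by -0.51 (-0.98 to -0.04, 0.132), and by -0.65 without vehicle replicate 2 (0.0472). None of the 11 chaperones, 4 isomerases, 7 ERAD genes and 3 translocon genes passed.

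Compared directly, semaglutide and vutiglabridin samples differed in 3 of the 35 genes, Sdf2l1, Dnajb11 and Sec61b, all lower under semaglutide. The share was 8.57% of the members, against 24.4% of all genes tested (12.6% higher, 11.9% lower). The groups of every member overlapped, while those of 3.40% of all genes did not, 2.27% higher and 1.13% lower. Sdf2l1 was lower by 40.7% in the mean, a log2 difference of -0.77 ± 0.23 (SE, adjusted p = 0.0176), and below the vutiglabridin mean in 7 of 8 samples. Dnajb11 differed by -0.28 ± 0.086 (SE, adjusted p = 0.0188, 7 of 8 samples) and Sec61b by -0.37 ± 0.11 (SE, adjusted p = 0.0132, 8 of 8 samples). Sec61b kept its call under all 15 alternative settings. Sdf2l1 lost it in the exact rank test (0.0677, within 0.0163 to 0.0677), and Dnajb11 under TPM scaling (0.0906), quantile normalization (0.0607), GC and length removal (0.0625) and the rank test (0.101), within 0.0163 to 0.101.

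For the sensors and factors the 2 drugs could not be told apart. The differences, semaglutide minus vutiglabridin, were 0.11 for Atf6 (95% interval -0.0014 to 0.23, adjusted p = 0.139), 0.15 for Ern1 (-0.05 to 0.34, 0.261) and 0.08 for Eif2ak3 (-0.09 to 0.25, 0.514). They were -0.03 for Xbp1 (-0.23 to 0.17, 0.836), -0.15 for Atf4 (-0.33 to 0.02, 0.198) and -0.09 for Ddit3 (-0.51 to 0.32, 0.780). For Hspa5 the difference was -0.16 (-0.42 to 0.10, 0.365). Under TPM scaling 3 members were higher (Canx, Sel1l and Atf6) and 2 lower (8.57% and 5.71%), against 19.6% and 5.09% of all genes. Under quantile normalization 2 were higher and 2 lower (5.71% each), against 11.6% and 10.4% of all genes. The count of called members rose to 6 without semaglutide replicate 5 and to 5 without semaglutide replicate 4.

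The members also varied from library to library within a group, and the folding genes did so together. Over the 15 chaperones and isomerases, the mean log2 value against the vehicle mean ran from -0.23 in vehicle replicate 5 to 0.21 in vehicle replicate 3. In vutiglabridin it ran from -0.39 in replicate 1 to 0.34 in replicate 4. In semaglutide 4 libraries were low, replicates 3 (-0.53), 7 (-0.52), 8 (-0.48) and 2 (-0.39), while replicates 4 (0.03) and 5 (0.01) were at the vehicle level. The labels give no feature that separates these libraries, and no test was made between them.

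**Figure D3:**
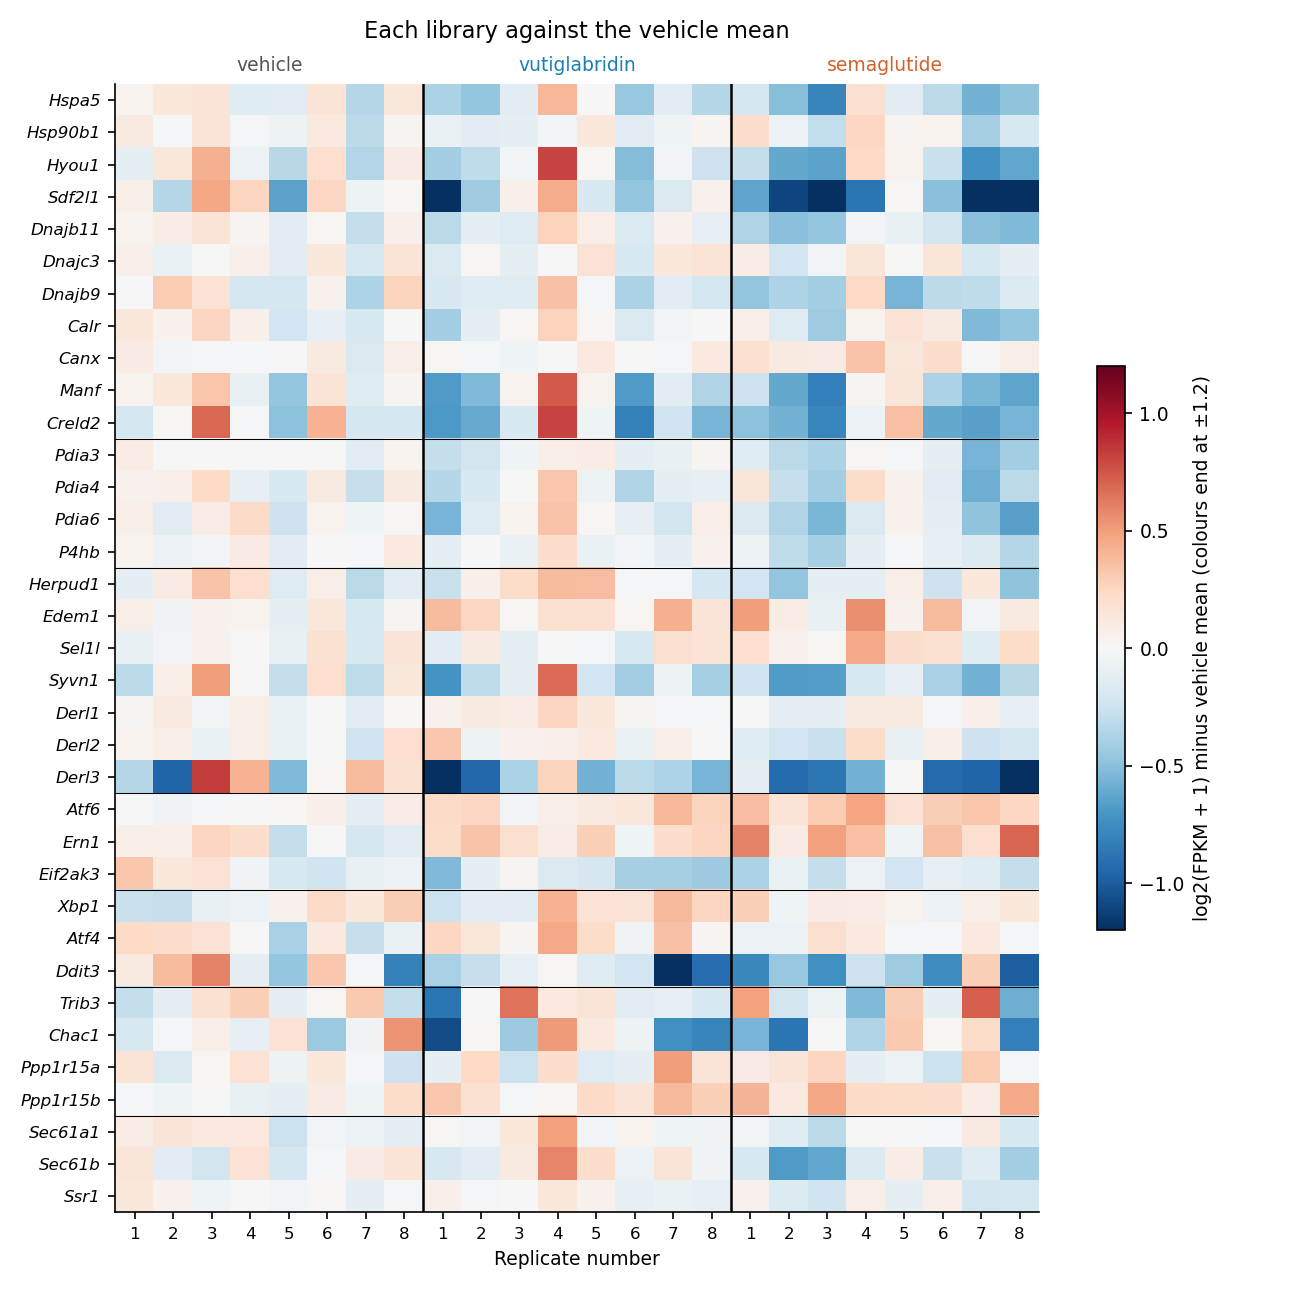
Each of the 35 genes (rows, by role) in each of the 24 libraries (columns, by group and replicate number) as log2(FPKM + 1) minus the vehicle mean of that gene; blue is lower, red is higher, and colours end at ±1.2. In each of semaglutide replicates 2, 3, 7 and 8, 14 of the 15 chaperone and isomerase rows are below 0 (all but Canx), and in vutiglabridin replicate 4 13 of 15 are above 0 (all but Hsp90b1 and Dnajc3), while the rows of Atf6 and Ern1 are mostly red in both drug groups.

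After each group's mean was subtracted, the members' levels were correlated with Hspa5 over the 24 samples, and with Trib3, a target of ATF4 and CHOP. With Hspa5, 20 of 34 members passed at an adjusted p under 0.05, all with a positive Pearson r (permutation within groups, 100000 draws, 2-sided, Benjamini-Hochberg over 68 relations, in which the pair of Hspa5 and Trib3 counts in both sets). The median r of the members was 0.57, against 0.00 over 11527 other genes. In all, 22 of 34 members had an r over 0.5, against 1.99% of the other genes. Rescaled to TPM the members' median r was 0.48. By rank, P4hb, Sec61a1 and Sec61b no longer passed (permutation adjusted p for rho 0.144, 0.180 and 0.0538) and Dnajc3 did (0.0375).

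The 5 highest were Hyou1 (r = 0.93, rho = 0.90), Pdia4 (0.90, 0.90), Manf (0.90, 0.89), Dnajb11 (0.86, 0.81) and Creld2 (0.79, 0.83). Hyou1, Pdia4 and Manf reached 1e-05, the smallest permutation p that could be given, and the adjusted p for r was 0.000227 for these, 0.000272 for Dnajb11 and 0.000453 for Creld2. Those for rho were 0.00017 for Hyou1, Pdia4, Manf and Creld2 and 0.00034 for Dnajb11. Without the 2 samples farthest from the median of Hspa5, vutiglabridin replicate 4 (316 FPKM) and semaglutide replicate 4 (274 FPKM), r was 0.87, 0.85, 0.86, 0.77 and 0.72 in the same order. Within single groups of 8, r of Hyou1 was 0.85 in vehicle, 0.97 in vutiglabridin and 0.93 in semaglutide, and r of Pdia4 was 0.95, 0.91 and 0.89.

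Members that carry the signal rather than fold proteins had lower r with Hspa5 than the chaperones and isomerases did. Among them Atf4 had an r of 0.42 (rho = 0.35, permutation adjusted p = 0.0683), against 0.41 for the ERAD gene Derl3. Within groups the r of Atf4 was 0.71 in vehicle, 0.71 in vutiglabridin and -0.22 in semaglutide. The lowest r were those of Ppp1r15a (r = -0.20, rho = -0.27, permutation adjusted p = 0.511), Ppp1r15b (-0.12, -0.02, 0.703) and Ern1 (-0.01, 0.01, 0.980). Atf6 had an r of 0.08 (rho = -0.01, permutation adjusted p = 0.845; 0.62 within vehicle, -0.38 within vutiglabridin and 0.45 within semaglutide) and Trib3 of 0.01 (rho = 0.08, 0.980). Sdf2l1 had an r of 0.60 (rho = 0.63, permutation adjusted p = 0.0212), with 0.29 within vehicle, 0.67 within vutiglabridin and 0.66 within semaglutide. Hspa5 itself had an r of -0.17 with implied depth, 0.36 with the FPKM total and -0.30 with Alb over the 24 samples. Within single groups its r was -0.54 with depth in vehicle, 0.56 with the FPKM total in semaglutide and 0.83 with the plasma cell gene Jchain in vutiglabridin. With Jchain it was -0.045 in vehicle and 0.062 in semaglutide, and with Mzb1, another plasma cell gene, 0.33 in vutiglabridin. The part of these in the relations was not tested.

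**Figure D4:**
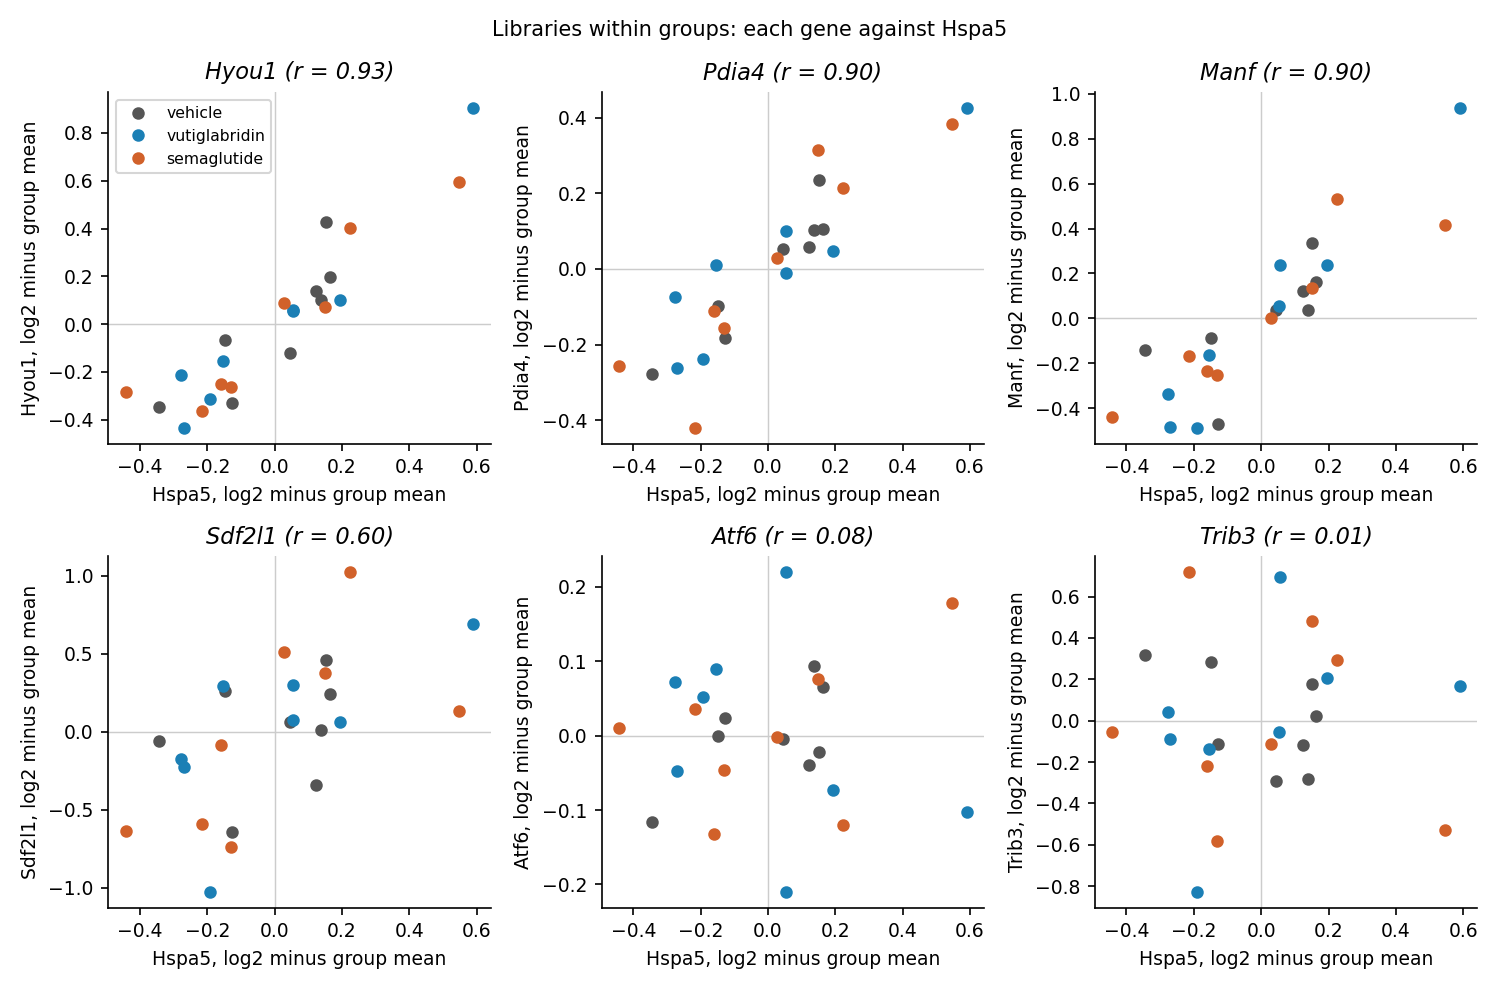
Each panel plots 1 gene against Hspa5 in the 24 libraries, both as log2(FPKM + 1) minus the mean of the library's group; colours mark the group. Hyou1, Pdia4 and Manf rise with Hspa5 (r of 0.93, 0.90 and 0.90), Sdf2l1 follows more loosely (0.60), and Atf6 (0.08) and Trib3 (0.01) show no trend over the 24 libraries together. Within vehicle, vutiglabridin and semaglutide, the r of Atf6 was 0.62, -0.38 and 0.45, and that of Trib3 was -0.55, 0.42 and -0.17.

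With Trib3, 1 of 34 members (2.94%) had an r over 0.5, against 4.51% of other genes. At the adjusted threshold 2 of 34 passed, Herpud1 (r = 0.60, rho = 0.62, permutation adjusted p = 0.0168) and Derl3 (r = 0.50, rho = 0.52, 0.0374). Without semaglutide replicate 7 and vutiglabridin replicate 1, the samples farthest from the Trib3 median at 9.75 and 2.58 FPKM, r was 0.47 for Herpud1 and 0.54 for Derl3. Pdia6 (0.45), Sdf2l1 (0.43) and Chac1 (0.43) came next, and Derl2 (-0.47), Ppp1r15b (-0.46) and Canx (-0.40) were lowest. The median r of the members with Trib3 was 0.13, against 0.03 over the other genes. Trib3 had an r of 0.38 with implied depth over the 24 samples and 0.87 within vehicle, whose part was not tested. Ddit3 and Atf4, the factors upstream of Trib3, had an r with it of 0.37 and -0.10.

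Among all genes tested, the 20 with the highest r with Hspa5 included 6 members and 7 genes of the wider ER lists described next, a list looked at after its values were seen. The highest outside the members were Gfpt1 (r = 0.90), the first enzyme of hexosamine synthesis, and Sec23b (0.89), a coat protein of vesicles that leave the ER. The 20 genes with the highest r with Trib3 included none of either set.

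The wider ER and stress genes, 215 tested in 6 lists, showed calls in both directions. Against vehicle, semaglutide samples were higher in 18 and lower in 31. That is 22.8% of the 215 (8.37% higher, 14.4% lower), near or below the 27.0% of all genes tested (14.3% higher, 12.7% lower), and the counts of each list that follow are to be read against these shares. Of 38 genes of transport between ER and Golgi, 4 rose and 13 fell. Sec24a, a cargo adaptor of the COPII coat, rose by 0.63 ± 0.092 (SE, adjusted p from limma 1.82e-05) and the cargo receptor Tmed7 by 0.34 ± 0.078, while the Golgi SNARE Stx5a fell by 0.25 ± 0.058. Of 40 further folding genes, 4 rose and 6 fell, led by Kdelr3, a retrieval receptor (-0.49 ± 0.11), Sumf1, which activates sulfatases (-0.26 ± 0.060), and Tmx4, a membrane thioredoxin (0.37 ± 0.089). Of 38 further ERAD genes, 3 rose and 2 fell, with the ubiquitin ligase March6 at 0.78 ± 0.10, the mannosidase Man1b1 at -0.17 ± 0.044 and the conjugating enzyme Ube2g2 at -0.24 ± 0.074.

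Of 31 further translocation genes, 2 rose and 3 fell. The signal peptidase subunit Sec11c fell by 0.40 ± 0.056 and the signal recognition particle subunit Srp19 by 0.20 ± 0.057, while the translocon partner Tram1 rose by 0.17 ± 0.054. Of 30 further control genes, 3 rose and 2 fell, with Atf6b, the close relative of Atf6, lower by 0.27 ± 0.082, and the kinases Eif2ak2 and Mapk8 higher by 0.24 ± 0.073 and 0.20 ± 0.065. Of 38 further targets of the integrated stress response, 2 rose and 5 fell. Vldlr, a lipoprotein receptor, rose by 0.73 ± 0.074 and the amino acid transporter Slc38a2 by 0.51 ± 0.12, and the tryptophanyl-tRNA synthetase Wars fell by 0.29 ± 0.067. Rescaled to TPM, 11 of the 215 were higher and 59 lower (5.12% and 27.4%), against 10.6% and 18.8% of all genes.

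Under vutiglabridin, 15 of the 215 were higher and 9 lower than in vehicle (11.2%, against 15.3% of all genes tested). That split turned to 1 and 55 under TPM scaling (0.465% and 25.6%, against 2.02% and 23.6% of all genes). Under quantile normalization it turned to 3 and 13 (1.40% and 6.05%, against 4.65% and 7.33%). None of the 38 ER and Golgi transport genes passed. Of the folding genes 4 rose and 5 fell, with Kdelr3 at -0.63 ± 0.11, the calcium-binding Rcn1 at -0.46 ± 0.081 and the disulfide reductase Dnajc10 at -0.31 ± 0.052. In the ERAD list 4 rose, among them Aup1 (0.16 ± 0.051) and Dnajb12 (0.15 ± 0.045), and in the translocation list 2 rose, Srpr (0.21 ± 0.055) and Tram1 (0.18 ± 0.054). Of the stress targets 4 rose and 2 fell, with the serine enzyme Shmt2 at 0.30 ± 0.056, the cysteine enzyme Cth at 0.40 ± 0.11 and the proline enzyme Aldh18a1 at -0.40 ± 0.11. Of the control genes 1 rose and 2 fell, the latter being Creb3l1 at -0.51 ± 0.12 and Casp12 at -0.46 ± 0.15.

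Between the drugs, semaglutide samples were higher in 15 of the 215 and lower in 32 (21.9%, against 24.4% of all genes tested). These counts turned to 30 and 10 under TPM scaling (14.0% and 4.65%, against 19.6% and 5.09% of all genes). Under quantile normalization they turned to 17 and 16 (7.91% and 7.44%, against 11.6% and 10.4%). The transcription factor Cebpb, a partner of CHOP, had the largest difference among the genes named by rule, -0.91 ± 0.22 (SE), and Sec24a and Vldlr were higher by 0.49 ± 0.092 and 0.50 ± 0.074. Dnajc10 was higher by 0.38 ± 0.052 and Eif2ak2 by 0.43 ± 0.073, and Sec11c was lower by 0.32 ± 0.056.

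Markers of cell types moved between the groups as well, and in bulk tissue fewer cells of a type and less RNA per cell cannot be told apart. Under semaglutide 6 of 10 stellate cell markers and 5 of 9 macrophage markers tested were lower than in vehicle, and under vutiglabridin 4 of 10 and 7 of 9. Summed stellate markers ran from 143 to 214 FPKM in vehicle, 92.1 to 146 in vutiglabridin and 92.7 to 136 in semaglutide, and summed macrophage markers from 219 to 511, 133 to 275 and 136 to 274. Hepatocyte markers were higher in 6 of 9 under semaglutide and 4 of 9 under vutiglabridin. Endothelial markers were higher in 2 and 1 of 6, cholangiocyte markers lower in 0 and 2 of 5, and T and NK cell markers lower in 0 and 2 of 3. Of the B and plasma cell markers 0 and 1 of 3 tested were lower, and of the 9 pancreatic acinar markers 1 could be tested, Cela1, which was lower under semaglutide. No marker with a row had a group median of 0. The part of cell composition in the changes of the 35 genes was not tested.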

How the data were processed

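Liver RNA of 24 mouse samples, 3 labelled groups of 8, was sequenced from stranded poly(A) libraries as paired reads, per the labels' protocols. The authors deposited FPKM, 1 value for each gene in each sample. The submitters' processing notes name HISAT2, StringTie and DESeq2. Their versions and roles, the genome build and the gene filter were not given in the sources used here. All 14293 identifiers matched GENCODE M21 (GRCm38), which gave coordinates, exon lengths and GC content. Library depth was read from low FPKM values of genes with up to 1500 bp of exon. Every value used fell no more than 0.15 from a whole fragment, though the step itself had been picked to fit them.

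Values were taken as log2(FPKM + 1), which understates changes of low genes. The filter kept genes reaching 0.5 FPKM in 8 or more samples, which were tested with limma 3.58.1 (R 4.3.3, mean trend, 1 fit to all samples, 2-sided) at a Benjamini-Hochberg adjusted p under 0.05 per comparison. Intervals are 95%. No pair of libraries held identical values. Alternatives were other pseudocounts, filters, scalings, spread estimates and sample sets, the replicate number as a block, removal of GC and length trends, an exact rank test and each library left out. The fit was tested on simulated data. For correlations a pseudocount of 0.1 and TPM scaling were added after the data were seen.

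The members and lists were chosen with earlier results of these data known. All members are named. Full statistics are given for called members and for the sensors and factors, and the other lists are represented by up to 3 called genes with the lowest p per comparison. Some genes that this rule names are not reported here. Of 244 symbols on the other lists, 226 had a row and 215 were tested. Promoters are from RefSeq (GRCm38.p6), with none given for Hyou1, Manf, Derl1, Atf6, Ppp1r15b and Sec61a1. Protein sequences were not used here.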

Additional observations from a re-analysis of the deposited data

Results flagged for a closer look

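In 5 of the 105 sets of 8 values (35 genes in 3 groups), 1 library stood far from the others by Dixon's criterion, which chance gives in about 1 of 20 sets. In vehicle replicate 7, Hsp90b1 was 170.32 FPKM against 203 to 235 in the other vehicle libraries, and Pdia3 was 158.01 FPKM against 171 to 183. In vutiglabridin replicate 4, Hyou1 was 47.29 FPKM against 18.1 to 26.7 in the other vutiglabridin libraries, Creld2 was 46.86 FPKM against 14.5 to 25.4, and Sec61a1 was 46.73 FPKM against 31.6 to 36.1. Without vutiglabridin replicate 4, 3 members were called under vutiglabridin, 16 under semaglutide and 3 between the drugs. No explanation was tested for either library.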

How the results depend on the processing

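No called member changed sign under any alternative run. Under vutiglabridin the count of 2 called members became 6 with TPM scaling, 4 with quantile normalization and 0 in the exact rank test, and 0 to 3 when 1 library was left out (1 without vehicle replicate 1, 2, 3 or 7 or vutiglabridin replicate 2). Under semaglutide the 13 became 7 in the rank test and 7 to 16 with 1 library left out. They became 17 under TPM scaling (48.6%, against 29.3% of all genes) and 19 with sample weights (54.3%, against 32.6%). With GC and length trends removed 11 were called (31.4%, against 28.4%). Between the drugs the 3 became 5 with TPM scaling (14.3%, against 24.7% of all genes), 1 in the rank test and 3 to 6 with 1 library left out. For the other ER and stress genes the 24 under vutiglabridin became 56 with TPM scaling (26.0%, against 25.6% of all genes). They became 37 with GC and length trends removed together with the replicate block (17.2%, against 18.8%), and 15 to 28 with 1 library left out (15 without vehicle replicate 7). The 49 and 47 of the other comparisons ran from 37 to 58 and from 41 to 58. The replicate number as a block gave 2, 13 and 3 called members and 27, 47 and 51 other genes, with the vutiglabridin call of Atf6 lost (adjusted p = 0.0508) and that of Ppp1r15b gained (0.0492). Deviations of same-numbered libraries were compared for vehicle with vutiglabridin, vehicle with semaglutide and vutiglabridin with semaglutide. In that order r was over 0.1 in 6, 2 and 3 of 8 pairs, with medians of 0.15, -0.04 and -0.04. Of 8 libraries, 3, 0 and 1 correlated best with their own number. Whether same-numbered libraries pair was not tested. With a pseudocount of 0.1 the median r was 0.57 for Hspa5 and 0.14 for Trib3, and TPM scaling gave 0.48 and 0.15. Depth limits genes such as Derl3, at 1 to 39 fragments in semaglutide libraries, and Kdelr3, at 2 to 18 in vutiglabridin libraries.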
